A study of Mus musculus with 26 samples.

Results

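The 37 genes encoded by the mouse mitochondrial genome were followed across RNA-seq libraries of mouse embryonic stem cells (ESCs) and of the neural progenitors (NPCs) derived from them. The genes were selected by their symbol, which starts with mt-, and made up 37 of the 55291 genes listed in each of the 2 count tables. They comprised 13 messenger RNA genes, 2 ribosomal RNA genes and 22 transfer RNA genes. The set was chosen on a readout, since the share of counts on these genes had been seen to be higher in NPCs of the Podxl pA line. Values of that line in NPCs are therefore given as a description, with no test.

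All cells derived from E14, a mouse ESC line. In the CTCF rescue lines, both endogenous alleles of the chromatin looping factor CTCF carried an AID2 degron, OsTir1(F74G) was inserted at Rosa26, and doxycycline-inducible Flag-Halo-tagged CTCF was inserted at Tigre, either WT or with zinc finger 1 deleted (ΔZF1). Each rescue line was 1 clone, and all 4 groups, WT and ΔZF1 as ESCs (ESC-WT, ESC-ΔZF1) and as NPCs (NPC-WT, NPC-ΔZF1), received 1 µM 5-Ph-IAA, which triggers the degradation of degron-tagged CTCF, and 1 µg/ml doxycycline for 24 hours, with 2 libraries a group. In the truncation lines, a homozygous cassette of a self-cleaving peptide, eGFP and an SV40 polyadenylation (pA) signal after the first coding exon cut short the RNA of Podxl, a sialomucin of the cell surface, or of Grb10, an adaptor of growth factor receptors. These lines and unedited E14 WT cells were measured as ESCs and NPCs with 3 libraries a group and no 5-Ph-IAA or doxycycline listed. NPCs were cells after 2 days of differentiation on laminin in N2B27 medium. The study calls the libraries biological replicates, so the p-values below measure the spread between these cultures. Edited cells were grown from single-cell clones, and the number of clones sequenced per truncation line is not given in the sources used here. Differences between clones or lines therefore cannot be told apart from those made by an edit or by ΔZF1. The rescue and truncation lines are in separate tables, were tested only within each table, and their levels stand side by side here without a test.

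Mitochondrial DNA is a small circle that is transcribed on both strands into long precursor RNAs by the RNA polymerase Polrmt with the factors Tfam and Tfb2m. Transfer RNAs punctuate the precursors and are cut out, which releases the messenger and ribosomal RNAs between them. The messenger RNAs encode core subunits of the respiratory chain and ATP synthase: NADH dehydrogenase subunits of complex I (Nd1 to Nd6 and Nd4l), cytochrome b of complex III (Cytb), cytochrome c oxidase subunits of complex IV (Co1 to Co3) and the Atp6 and Atp8 subunits of complex V. All other proteins of the organelle are encoded in the nucleus. Since these were bulk samples, fewer cells of a type and less RNA per cell cannot be told apart.

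The counts did not cover the whole mitochondrial genome. Of the 37 genes, 13 had at most 3 counts in each of the 26 libraries and 9 of these had 0 in all of them. The stretch from mt-Ts1 to mt-Nd4l (chrM:6870-10173, GRCm38) was blank in this sense, and it holds 11 genes, among them mt-Co2, mt-Atp8, mt-Atp6, mt-Co3, mt-Nd3 and mt-Nd4l. The highest count in any library was 1 for mt-Co2, 1 for mt-Atp6 and 3 for mt-Nd3, and mt-Atp8, mt-Co3 and mt-Nd4l had 0 throughout. The genes on either side were abundant. mt-Co1, upstream, reached 77562 counts and mt-Nd4, downstream, reached 15449.

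The blank stretch coincides with a near-identical copy in the nuclear genome. On the minus strand of chromosome 1 (chr1:24611535-24616197, GRCm38), 7 annotated pseudogenes repeat mt-Nd4 to mt-Co1 in the same order. Of these, 5 match their mitochondrial gene in every base that they share, and Gm28439 covers only the first 876 of the 1378 bases of mt-Nd4. Gm28438 differs from mt-Nd3 at 1 base, T3C, counted from the first base of mt-Nd3, and Gm29216 differs at 6 of the 492 bases that it shares with mt-Co1. The following 50-base stretches, the length of 1 read of a pair, are shown because they are the starts of copied genes with almost no counts, the start of the copied part of mt-Co1 and the start of mt-Nd1, which has no such copy. Capitals mark the bases that differ between a gene and its copy.
mt-Co2, chrM:7013-7062, plus strand: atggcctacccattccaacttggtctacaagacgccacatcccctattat
Gm28661, chr1:24615516-24615565, minus strand: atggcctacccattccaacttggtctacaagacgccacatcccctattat
mt-Co3, chrM:8607-8656, plus strand: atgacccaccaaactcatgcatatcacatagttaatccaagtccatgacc
Gm28437, chr1:24613922-24613971, minus strand: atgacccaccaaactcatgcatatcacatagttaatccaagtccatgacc
mt-Nd3, chrM:9459-9508, plus strand: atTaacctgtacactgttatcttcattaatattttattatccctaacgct
Gm28438, chr1:24613070-24613119, minus strand: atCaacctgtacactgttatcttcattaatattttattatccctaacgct
mt-Co1, chrM:6381-6430, plus strand: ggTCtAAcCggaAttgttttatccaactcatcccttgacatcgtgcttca
Gm29216, chr1:24616148-24616197, minus strand: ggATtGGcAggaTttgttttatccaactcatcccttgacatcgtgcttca
mt-Nd1, chrM:2751-2800, plus strand: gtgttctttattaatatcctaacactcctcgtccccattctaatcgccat

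Every 50-base window of mt-Co2 occurred in an annotated transcript of another gene. This share was 99.5% for mt-Atp6, 99.9% for mt-Co3, 98.0% for mt-Nd3 and 98.8% for mt-Nd4l, against 62.2% for mt-Nd4 and 51.1% for mt-Co1. It was 8.19% for mt-Nd2, 7.61% for mt-Nd5 and 1.04% for mt-Rnr2, and 0 for mt-Nd1, mt-Nd6, mt-Cytb and mt-Rnr1. Windows of mt-Atp8 also gave 0, but its place in the copy lies between Gm10925 and Gm28661, where no gene is annotated, so transcripts alone do not show whether it is copied. Together the 7 copies took 5 to 77 counts per rescue library and 1 to 7 per truncation library. How reads with several equal alignments were treated is not given in the sources used here, and their part in the blank stretch was not tested. A value of 0 or 1 for the 6 messenger RNAs is therefore no measure of their level, and counts of mt-Nd4 and mt-Co1 may cover only the part of each gene that is not copied.

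**Figure D1:**
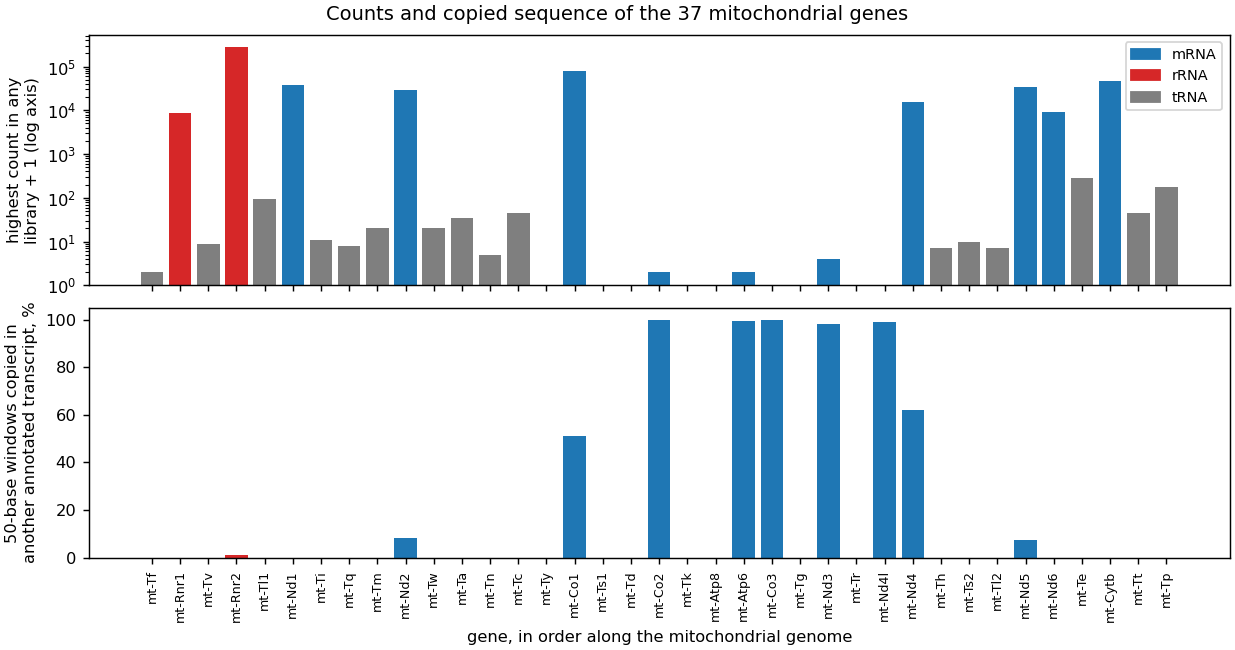
The 37 mitochondrial genes in their order along the genome, with the highest count in any of the 26 libraries plus 1 on a log axis (upper panel) and the percent of 50-base windows found in another annotated transcript (lower panel), coloured by RNA type. From mt-Ts1 to mt-Nd4l no count exceeds 3, and 5 of the 6 messenger RNAs there are copied in 98.0% or more of their windows.

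This left 7 messenger RNAs, both ribosomal RNAs and 15 transfer RNAs with more than 3 counts in some library. A filter on low counts (filterByExpr of edgeR) kept 17 of the 37 for testing in the rescue lines, with 8 transfer RNAs, and 12 in the truncation lines, with 3 transfer RNAs; the other 20 and 25 were not tested. Sequences came from a 50-base paired-end design and reads were counted without regard to strand, so RNA of mt-Nd6 and of the transfer RNAs on the minus strand of chrM cannot be told apart from RNA of the opposite strand.

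Rescue libraries held 6425179 to 28730435 counts and truncation libraries 1907505 to 8845087. A count of 0 allows a level of up to 3 counts, which was 0.104 to 1.57 CPM (counts scaled to 1000000 per library). Podxl fell from 246 ± 13.6 CPM (SD, n = 3) in E14 WT NPCs to 22.5 ± 1.72 in Podxl pA NPCs, and Grb10 from 795 ± 23.4 to 54.6 ± 4.14 CPM in Grb10 pA NPCs. Ctcf, counted together with its rescue copy, stood at 570 ± 10.6 CPM (n = 2) in ESC-WT and 846 ± 20.4 in ESC-ΔZF1, and does not check the protein. Among rescue-line NPCs it was at 792 ± 9.19 CPM with ΔZF1 against 462 ± 18.2 with WT. Grb10 pA cells, which carry no rescue copy, had less Ctcf than E14 WT cells, without overlap. Means were 148 ± 12.5 against 231 ± 2.23 CPM (n = 3) for ESCs and 158 ± 3.08 against 215 ± 4.22 for NPCs. Podxl pA cells had 244 ± 8.82 CPM as ESCs and 217 ± 4.45 as NPCs. The part of Ctcf in the results below was not tested. The summed level of 8 pluripotency markers was 4616 to 6793 CPM in ESC libraries and 704 to 1464 in NPC libraries over both tables, and 8 NPC markers summed to 17.5 to 47.5 CPM in ESCs and 37.6 to 149 in NPCs. Grb10 pA NPCs had 37.6 to 50.1 CPM of these NPC markers against 118 to 128 in E14 WT NPCs, with 6 of the 8 detected. Markers of primitive and visceral endoderm differed between NPC groups. They summed to 865 to 909 CPM in NPC-ΔZF1 against 118 to 131 in NPC-WT, and to 579 to 587 in Podxl pA NPCs against 292 to 337 in E14 WT NPCs. ESCs had less of them, with 12.8 to 14.6 CPM in E14 WT ESCs and 21.2 to 43.1 in ESC-WT. The part of this rise in the differentiation results below was not tested.

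The mitochondrial share of all counts varied between replicates as much as between most groups. In the rescue lines it was 1.52% and 2.03% in ESC-WT, 1.25% and 2.06% in ESC-ΔZF1, 2.01% and 0.580% in NPC-WT and 1.78% and 1.97% in NPC-ΔZF1. The second NPC-WT library stood below the other 7, and the 4 groups otherwise overlapped. Among truncation-line ESCs the share was 0.431%, 0.420% and 0.273% in E14 WT, 0.230%, 0.300% and 0.347% in Podxl pA and 0.260%, 0.106% and 0.228% in Grb10 pA. Every Grb10 pA ESC library was below every E14 WT ESC library. Among NPCs it was 0.318%, 0.226% and 0.801% in E14 WT, 1.48%, 1.20% and 0.815% in Podxl pA and 0.451%, 0.516% and 0.608% in Grb10 pA.

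The Podxl pA NPC libraries were the highest of the truncation table, which is the value the gene set was chosen on. The lowest of them, at 0.815%, lay just above the highest of the other libraries, the third E14 WT NPC replicate at 0.801%. The 95% Wilson interval of a share reached at most 3.34% of its value to either side, and was widest, at 0.102% to 0.109%, for the second Grb10 pA ESC library. That library also gave 15.5% of its counts to its 10 highest genes. Each interval was computed from the counts of 1 library, so it leaves out the spread between cultures. The reads carried no molecular identifiers, so duplicates count as separate reads and an interval may be too narrow for counting error as well. From the lowest to the highest library the share differed 3.55-fold among rescue libraries, and in the truncation table it ran from 0.106% to 1.48%.

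**Figure D2:**
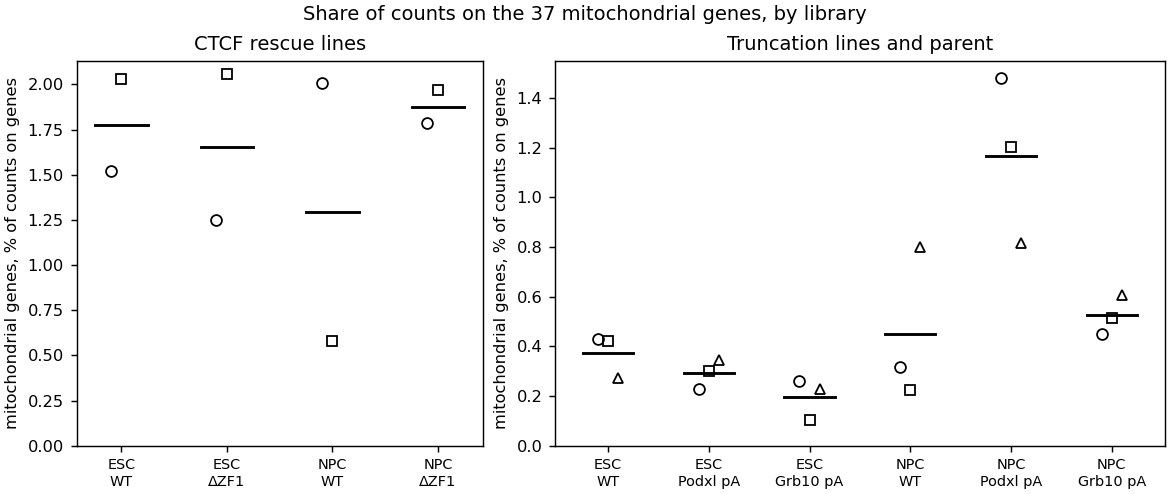
Mitochondrial share of all counts, in percent, for each of the 26 libraries by group, with the replicates as symbols (circle 1, square 2, triangle 3) and the group mean as a bar. The Podxl pA NPC libraries lie at 0.815% to 1.48%, and the second NPC-WT rescue library, at 0.580%, is apart from its partner at 2.01%.

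The spread between replicates was wide gene by gene as well. The pooled within-group SD of log2 CPM was 0.45 (mt-Nd6) to 0.74 (mt-Nd2) over the 7 messenger RNAs in the rescue lines and 0.38 (mt-Nd5) to 0.60 (mt-Nd2) in the truncation lines. The median SD over genes with a mean of at least 50 CPM was 0.12 in both tables. Each of the 7 messenger and 2 ribosomal RNAs exceeded at least 99.4% of those genes, which numbered 4509 and 4622. This spread enters every test below.

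Levels differed widely along the genome. Per 1000 windows of 50 bases that occur in no other transcript, ESC-WT held 6485 ± 1773 CPM of mt-Rnr2 (SD, n = 2), 3428 ± 465 of mt-Co1, 1359 ± 193 of mt-Nd1 and 1269 ± 231 of mt-Cytb. The levels went on with mt-Nd2 at 947 ± 80.3, mt-Nd4 at 825 ± 127, mt-Nd5 at 527 ± 53.8, mt-Nd6 at 461 ± 49.5 and mt-Rnr1 at 354 ± 144. Of neighbours in this order, mt-Nd1 and mt-Cytb, mt-Nd2 and mt-Nd4, mt-Nd5 and mt-Nd6, and mt-Nd6 and mt-Rnr1 differed by less than their summed SDs. E14 WT ESCs had mt-Co1 first at 1136 ± 347 (n = 3), mt-Rnr2 at 904 ± 202, mt-Nd1 at 456 ± 147, mt-Cytb at 253 ± 89.3 and mt-Nd6 last at 156 ± 55.1, again as CPM per 1000 such windows. In these libraries all neighbours in the order, other than mt-Rnr2 and mt-Nd1, differed by less than their summed SDs. The place of the copied genes depends on the windows counted: per 1000 windows of any kind, E14 WT ESCs held 555 ± 170 CPM of mt-Co1 and 895 ± 199 of mt-Rnr2, so that mt-Rnr2 came first, and mt-Nd4 came last at 89.9 ± 33.4. On the same scale mt-Nd4 was also last in ESC-WT, at 312 ± 48.0.

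Complex IV and complex III were represented by mt-Co1 and mt-Cytb. mt-Co1, the catalytic oxidase subunit, measured 2265 and 2746 CPM in ESC-WT, 1754 and 2683 in ESC-ΔZF1, 3238 and 961 in NPC-WT and 2734 and 2807 in NPC-ΔZF1. In the truncation lines it was at 1089, 821 and 582 CPM in E14 WT ESCs, 502, 610 and 843 in Podxl pA ESCs and 592, 224 and 524 in Grb10 pA ESCs. In NPCs it was at 645, 302 and 778 CPM in E14 WT, 2254, 2151 and 1985 in Podxl pA and 1014, 1032 and 1064 in Grb10 pA. Podxl pA NPC libraries were thus the highest of their table and the Grb10 pA NPC libraries lay tightly together above E14 WT NPCs. mt-Cytb, which carries electrons within complex III, was at 376, 275 and 181 CPM in E14 WT ESCs and 167, 78.7 and 148 in Grb10 pA ESCs, with no overlap. In NPCs mt-Cytb read 202, 127 and 338 CPM in E14 WT, 850, 845 and 607 in Podxl pA and 218, 293 and 296 in Grb10 pA, and the E14 WT and Grb10 pA values overlapped.

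Complex I gave the other 5 messenger RNAs with counts. mt-Nd1, which lies next to the ribosomal RNA genes and encodes a membrane subunit near the quinone site, was at 547, 414 and 280 CPM in E14 WT ESCs and 228, 116 and 192 in Grb10 pA ESCs. In NPCs it was at 387, 233 and 626 CPM in E14 WT, 1134, 1029 and 735 in Podxl pA and 344, 533 and 455 in Grb10 pA. The Grb10 pA libraries were below E14 WT in ESCs and within its range in NPCs. mt-Nd5, a proton-pumping subunit, was at 359, 287 and 191 CPM in E14 WT ESCs, 188, 179 and 178 in Grb10 pA ESCs, 195, 127 and 303 in E14 WT NPCs and 278, 377 and 367 in Grb10 pA NPCs. mt-Nd6, the messenger RNA gene on the other strand, was at 98.8, 74.1 and 47.0 CPM in E14 WT ESCs, 42.6, 74.2 and 46.2 in Grb10 pA ESCs, 42.7, 33.5 and 76.8 in E14 WT NPCs and 70.0, 101 and 101 in Grb10 pA NPCs. The ESC groups overlapped for mt-Nd6, where the second Grb10 pA library was the high one although it was the low one for mt-Nd1. mt-Nd2 ran from 43.8 CPM in that library to 571 in a Podxl pA NPC library, and mt-Nd4 from 44.0 in an E14 WT NPC library to 356 in a Podxl pA NPC library.

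No mitochondrial gene passed the test for ΔZF1 in ESCs. Genes were called by the quasi-likelihood test of edgeR at a Benjamini-Hochberg adjusted p of at most 0.05 over all genes tested and an absolute log2 fold change of at least 0.5. Of all 16641 genes tested, 1.29% rose and 2.33% fell in ESC-ΔZF1 against ESC-WT, and of the 17 mitochondrial genes 0 did, with 0 at an unadjusted p under 0.05 and 0 by DESeq2. The 7 messenger RNAs differed by -0.18 to 0.15 on the log2 scale, with a median of 0.09 against -0.01 over all genes, and their adjusted p in edgeR was 0.896 or more. With SEs of 0.42 for mt-Co1 and 0.40 for mt-Nd1, differences well above these SEs could also go uncalled at this spread. In NPCs of the same fit, mt-Nd1 at 1.07 (SE 0.41) did not pass (adjusted p = 0.0896, edgeR).

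In NPCs with ΔZF1, 1 of the 17 genes rose, against 7.19% of all genes that rose and 10.5% that fell. This was mt-Tp, the proline transfer RNA on the minus strand of chrM, with 75 and 13 counts in NPC-WT and 175 and 147 in NPC-ΔZF1, or 3.18 and 1.12 CPM against 6.17 and 5.41. It rose by 1.30 on the log2 scale (SE 0.37, adjusted p = 0.0345, edgeR). The 7 messenger RNAs were all positive, from 0.40 for mt-Co1 to 1.07 for mt-Nd1 and 1.08 for mt-Nd2, with adjusted p of 0.0896 to 0.529 in edgeR, and their median was 0.75 against -0.0026 over all genes. mt-Nd1 read 1002 and 318 CPM in NPC-WT and 1348 and 1425 in NPC-ΔZF1, so 1 NPC-WT library was close to the mutant and 1 far from it. Without the first NPC-WT library, 12 genes were called higher in NPC-ΔZF1, without the second 2, and without either NPC-ΔZF1 library 0. The endoderm markers given above also differed between these groups, by all 8 genes of the list, and their part in the result was not tested.

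Differentiation of the rescue lines gave few calls. From ESC-WT to NPC-WT, 22.0% of all genes rose and 19.9% fell, and 1 of the 17 mitochondrial genes fell, mt-Tm, the methionine transfer RNA, which had 5 and 14 counts in ESC-WT and 5 and 1 in NPC-WT. It fell by 2.31 on the log2 scale (SE 0.62, adjusted p = 0.0112, edgeR), on counts that sit near the floor of 3. Messenger RNAs were lower by a median of -0.25 (range -0.90 to -0.17, against 0.01 over all genes) and none passed. This turned on the NPC-WT libraries, since without the first of them 12 genes were called lower, while without the second ESC-WT library 0 were. From ESC-ΔZF1 to NPC-ΔZF1, 20.4% of all genes rose and 16.9% fell, and 0 of the 17 were called, with 0 at an unadjusted p under 0.05 in edgeR and 0 by DESeq2, and messenger RNA changes of 0.05 to 0.47.

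The ΔZF1 effect in NPCs minus that in ESCs was 0.56 to 0.95 for the messenger RNAs, and 0 of the 17 passed the test of that difference. It was passed by 1.59% of all genes in the upward and 1.11% in the downward direction. An unadjusted p under 0.05 was reached by 1 gene in edgeR, mt-Tm, at 2.80 (adjusted p = 0.108), and DESeq2 called 0. Without the first NPC-WT library, 12 were called higher.

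Few genes differed between Podxl pA and E14 WT ESCs, with 0.0829% of the 13268 genes tested called higher and 0.256% called lower. None of the 12 mitochondrial genes was among them by edgeR or by DESeq2, which both called 0, and 5 had an unadjusted p under 0.05. All 12 had a negative log2 fold change, with messenger RNAs between -0.81 and -0.36 (median -0.47, against -0.0015 over all genes) and adjusted p of 0.284 or more in edgeR. mt-Nd1 stood at 241, 268 and 409 CPM in Podxl pA ESCs against 547, 414 and 280 in E14 WT ESCs, and the groups overlapped.

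Mitochondrial RNAs were lower in Grb10 pA ESCs. Of the 12 genes, 7 fell and 0 rose, against 4.58% of all genes that fell and 4.51% that rose, and the median over the 7 messenger RNAs was -1.08 against 0.01 over all genes. The fall was 0.89 for mt-Co1 (SE 0.27, adjusted p = 0.0239, edgeR), 1.08 for mt-Cytb (SE 0.28, adjusted p = 0.00819) and 1.21 for mt-Nd1 (SE 0.27, adjusted p = 0.00293), each as a decrease on the log2 scale. It was 1.25 for mt-Nd2 (adjusted p = 0.0105, edgeR) and 1.08 for mt-Nd4 (adjusted p = 0.00736), so 3 complex I subunits fell together with cytochrome b and the oxidase subunit. The other 2 complex I subunits did not pass, with -0.63 for mt-Nd5 (adjusted p = 0.0543, edgeR) and -0.50 for mt-Nd6 (adjusted p = 0.191). The ribosomal RNAs mt-Rnr1 and mt-Rnr2 had -0.83 and -0.86 and also did not pass.

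Transfer RNAs completed the list. mt-Tl1, the leucine transfer RNA between mt-Rnr2 and mt-Nd1, had 21, 14 and 4 counts in E14 WT ESCs and 2, 0 and 4 in Grb10 pA ESCs, and fell by 2.49 on the log2 scale (SE 0.61, adjusted p = 0.00536, edgeR). mt-Te, the glutamate transfer RNA, had 21, 16 and 8 counts against 9, 3 and 1 and fell by 1.63 (SE 0.55, adjusted p = 0.0444, edgeR). Both rest on few reads. Marker sums were apart in the same libraries without overlap: 8 pluripotency markers summed to 5512 to 5971 CPM in Grb10 pA ESCs against 4616 to 4782 in E14 WT ESCs, neuron markers to 208 to 235 against 326 to 343, and NPC markers to 17.5 to 25.2 against 29.5 to 36.3. The pluripotency markers did not move as a set, since 1 of the 8 was called higher and 1 lower. Among them Zfp42 was at 154, 163 and 186 CPM in Grb10 pA ESCs against 244, 275 and 312 in E14 WT ESCs. Of 5 neuron and 5 NPC markers tested, 2 and 1 were called lower and 0 higher. Their part in the result was not tested. Without the first E14 WT ESC library mt-Nd1 alone was called, and without any other single library of these groups 5 to 8 genes were.

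In Grb10 pA NPCs the calls went the other way. Here 4 of the 12 genes rose and 0 fell, against 7.9% of all genes that rose and 8.64% that fell, with a messenger RNA median of 0.63 against 0.01 over all genes. mt-Co1 rose by 0.86 (SE 0.27, adjusted p = 0.0175, edgeR), mt-Nd5 by 0.73 (SE 0.22, adjusted p = 0.0142) and mt-Nd6 by 0.88 (SE 0.25, adjusted p = 0.00928) on the log2 scale. mt-Tp, with 6, 11 and 4 counts in E14 WT NPCs and 40, 20 and 19 in Grb10 pA NPCs, rose by 1.33 (SE 0.45, adjusted p = 0.0281, edgeR). mt-Nd1 was at 0.10 and mt-Cytb at 0.29, with adjusted p of 0.809 and 0.453 in edgeR, and mt-Rnr1 and mt-Rnr2 were at -0.28 and 0.06. The genes that rose thus included both messenger RNAs that had not passed in ESCs. Calls depended on E14 WT NPCs, which are also the controls of the comparison that the set was chosen on: 0 genes were called without the second of these libraries, 7 without the third and 3 without the first. Without the second Grb10 pA NPC library 2 were called, and DESeq2 called 0. Other RNAs were apart in these libraries too, without overlap. Beside the lower NPC markers given above, neuron markers summed to 62.9 to 64.9 CPM in Grb10 pA NPCs against 132 to 142 in E14 WT NPCs, mesoderm markers to 71.8 to 88.7 against 38.5 to 45.2, and the 11 structural and nuclear noncoding RNAs to 4904 to 5431 against 4021 to 4425. Their part in the result was not tested.

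The opposite directions were tested as a difference. This test uses E14 WT NPCs, the controls of the comparison that the set was chosen on, so it is not independent of that choice. The Grb10 pA effect in NPCs minus that in ESCs was positive for all 12 genes and passed for 9, against 2.86% of all genes in the upward and 3.04% in the downward direction, where 0 of the 12 were called. It was 1.75 for mt-Co1 (SE 0.38, adjusted p = 0.0056, edgeR), 1.71 for mt-Nd4 (SE 0.38, adjusted p = 0.00664) and 1.36 for mt-Nd5 (SE 0.31, adjusted p = 0.00854) on the log2 scale, and these 3 passed in each of the 21 alternatives run. mt-Cytb, mt-Nd1, mt-Nd2 and mt-Nd6 passed at 1.31 to 1.75, together with mt-Tl1 at 3.50 and mt-Tp at 2.25. The ribosomal RNAs, at 0.55 and 0.92, did not. Only mt-Co1, mt-Nd4 and mt-Nd5 were called when the first E14 WT ESC library or the second E14 WT NPC library was left out, 4 genes without the second Grb10 pA NPC library, and 5 without the third Grb10 pA NPC or the first E14 WT NPC library. Leaving out any other library gave 6 to 9.

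Differentiation of E14 WT cells lowered 3 of the 12 genes and raised 0, where 16.5% of all genes rose and 16.3% fell. E14 WT NPCs are also the controls of the comparison that the set was chosen on, so these calls are not independent of that choice. mt-Nd4 fell by 0.69 (SE 0.27, adjusted p = 0.0347, edgeR), mt-Nd6 by 0.62 (SE 0.26, adjusted p = 0.0485) and mt-Tl1 by 2.18 (SE 0.57, adjusted p = 0.00248) on the log2 scale. mt-Nd4 had 165, 117 and 76.1 CPM in ESCs and 66.0, 44.0 and 126 in NPCs, and the third NPC library lay within the ESC range. mt-Tl1 had 2, 4 and 2 counts in NPCs. Without the third NPC library 8 genes were called lower, and without the third ESC library 5. Without either of the other libraries of each group mt-Tl1 alone was called lower, and leaving out the first or the second NPC library added 1 or 2 ribosomal RNAs called higher.

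In Grb10 pA cells the same step raised 10 of the 12 genes and lowered 0, where 17.2% of all genes rose and 17.4% fell. All 7 messenger RNAs rose, by a median of 1.02 on the log2 scale against -0.02 over all genes, from 0.76 for mt-Nd6 (SE 0.25, adjusted p = 0.0120, edgeR) to 1.41 for mt-Nd2 (SE 0.33, adjusted p = 0.000865). mt-Rnr2 rose by 1.50 (SE 0.34, adjusted p = 0.000703, edgeR), mt-Rnr1 by 2.04 (SE 0.71, adjusted p = 0.0191) and mt-Tp by 1.54 (SE 0.47, adjusted p = 0.00794). mt-Te at 0.55 and mt-Tl1 at 1.32 did not pass. Between 8 and 11 genes were called when single libraries of these groups were left out.

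The Podxl pA NPC values, on which the set was chosen, are given for description. Against E14 WT NPCs the log2 fold change was 1.90 for mt-Co1, 1.81 for mt-Cytb, 1.23 for mt-Nd1, 1.50 for mt-Nd2, 2.06 for mt-Nd4, 1.85 for mt-Nd5 and 1.83 for mt-Nd6. The ribosomal RNAs were at 1.01 and 1.21, below the median of the messenger RNAs, which was 1.83. Leaving out single libraries moved that median between 1.55 and 2.22. Against Podxl pA ESCs, the messenger RNAs lay at 1.65 to 2.21, mt-Rnr2 at 2.02 and mt-Rnr1 at 3.53. The 11 listed structural and nuclear noncoding RNAs had a lower sum in these libraries, 3336 to 3432 CPM against 4021 to 4425 in E14 WT NPCs. Single RNAs went both ways. Rmrp, the RNA of RNase MRP, was at 1230 ± 17.9 CPM (SD, n = 3) against 1829 ± 147. Malat1, a nuclear noncoding RNA, was higher, at 786 ± 71.4 against 662 ± 34.6. Their part in the values, and that of the endoderm markers, was not tested.

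**Figure D3:**
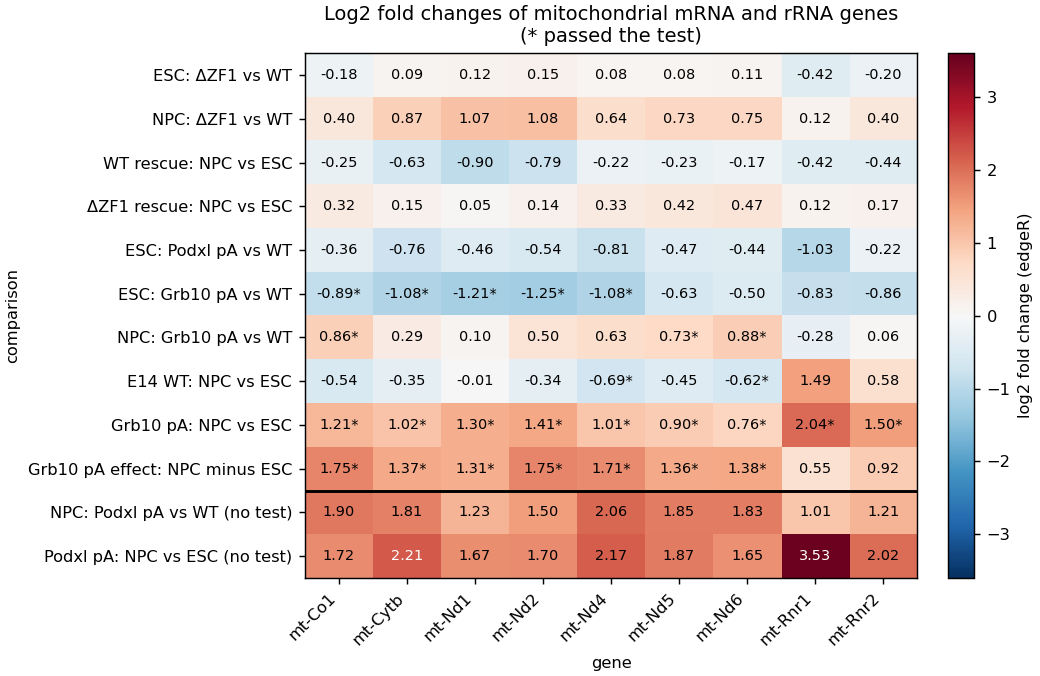
Log2 fold change of the 7 messenger and 2 ribosomal RNA genes in each comparison as a heat map (red higher, blue lower in the first-named group), with an asterisk where a gene passed the edgeR test. Grb10 pA is negative for all 9 in ESCs and positive for 8 in NPCs, and the 2 comparisons with Podxl pA NPCs, under the black line, carry no test.

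The ribosomal RNAs were the least steady members. The library kit depletes ribosomal RNA with probes that also target mitochondrial 12S and 16S, which are mt-Rnr1 and mt-Rnr2, so their counts are what remained after depletion. mt-Rnr1 read 80.3, 202 and 1603 CPM in E14 WT NPCs, 2281, 1246 and 247 in Podxl pA NPCs and 212, 541 and 789 in Grb10 pA NPCs. The E14 WT and Podxl pA values overlapped widely, and its pooled within-group SD of log2 CPM was 1.28 in the truncation lines against 0.64 in the rescue lines. mt-Rnr2 read 1320, 1083 and 3782 CPM in E14 WT NPCs, 6299, 4875 and 3145 in Podxl pA NPCs and 2061, 1811 and 2548 in Grb10 pA NPCs. In the rescue lines it ranged from 3246 to 11740 CPM. The ratio of mt-Rnr2 to mt-Rnr1 counts was 25.2 to 38.2 among rescue libraries and 2.36 to 18.5 among truncation libraries. Without both ribosomal RNAs the mitochondrial share was 0.255% to 0.930% and 0.0684% to 0.623%, in the same order.

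**Figure D4:**
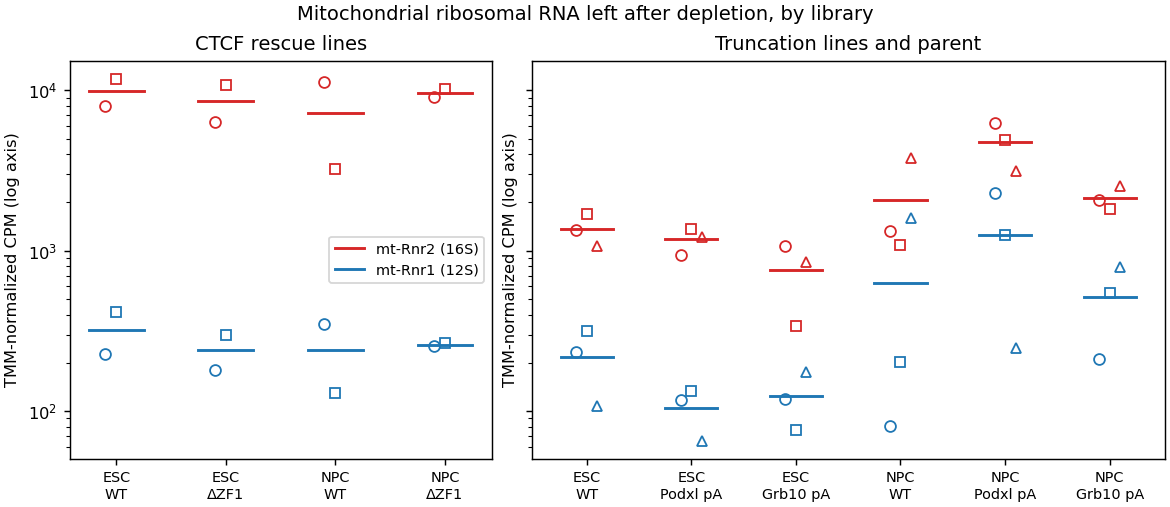
CPM of mt-Rnr1 and mt-Rnr2 in each library by group on a log axis, with replicate symbols and group means. mt-Rnr1 spreads from 80.3 to 1603 CPM within E14 WT NPCs and from 247 to 2281 within Podxl pA NPCs.

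Transfer RNAs were short and rarely counted. Summed over all 22, they took 7.77 to 25.7 of each 1000000 counts in rescue libraries and 3.69 to 22.9 in truncation libraries. The 5 highest by mean CPM in the rescue lines were mt-Te at 6.60, mt-Tp at 3.92, mt-Tl1 at 2.36, mt-Tc at 1.51 and mt-Ta at 0.969. In the truncation lines they were mt-Tp at 3.03, mt-Te at 2.30, mt-Tl1 at 1.66, mt-Tc at 0.821 and mt-Tm at 0.545. Of these, mt-Te, mt-Tp, mt-Tc and mt-Ta lie on the minus strand, where unstranded counting also takes in RNA of the plus strand.

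Within the mitochondrial messenger RNAs of the rescue lines, the proportion of mt-Co1 varied less between replicates than its level. mt-Co1 made up 33.5% of the counts on the 7 messenger RNAs in both ESC-WT libraries, 29.3% in both ESC-ΔZF1 libraries, 39.4% and 36.3% in NPC-WT and 31.2% and 30.6% in NPC-ΔZF1. With ΔZF1 it differed by -4.21 percentage points in ESCs and -6.88 in NPCs, each with an exact permutation p of 0.333, the smallest that 2 against 2 libraries allow. mt-Nd1 was higher with ΔZF1, at 17.7% against 16.5% in ESCs and at 15.5% against 12.1% in NPCs, with the same exact permutation p of 0.333. The 7 proportions sum to a fixed total, so these values are not independent: the other 6 were all higher in ESC-ΔZF1, where mt-Co1 was lower, and 3 were higher without overlap in NPC-ΔZF1. Groups often did not overlap in such proportions, in 36 of the 63 comparisons of a gene's proportion between tested groups (57.1%), among them 7 of 7 for ΔZF1 in ESCs and 4 of 7 in NPCs, and nothing particular to mt-Co1 or mt-Nd1 is read from it.

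In the truncation lines, mt-Nd1 made up 22.8%, 24.4% and 24.7% of these counts in E14 WT NPCs against 15.6%, 19.2% and 17.1% in Grb10 pA NPCs. The difference of -6.65 percentage points had an exact permutation p of 0.1, the smallest possible with 3 against 3 libraries. In ESCs the mt-Nd1 proportion was 18.6%, 18.8% and 18.7% in E14 WT and 16.2%, 15.3% and 15.4% in Grb10 pA, a difference of -3.12 points with the same exact permutation p of 0.1. The mt-Nd1 proportion was thus lower in Grb10 pA cells at both stages. So was that of mt-Cytb, without overlap, at 11.3% against 12.5% in ESCs and 10.5% against 12.9% in NPCs. Between Grb10 pA and E14 WT cells, 4 of 7 proportions did not overlap in ESCs and 2 of 7 in NPCs, beside 57.1% over all tested groups. The proportions sum to a fixed total, and nothing particular to mt-Nd1 is read from them. mt-Co1 was at 38.0%, 31.6% and 30.8% in E14 WT NPCs and 46.0%, 37.2% and 40.0% in Grb10 pA NPCs, and the groups overlapped (exact permutation p = 0.2). The second Grb10 pA ESC library stood apart in its proportions, with mt-Nd5 at 23.5% against 13.4% and 14.2% in its partners, mt-Nd6 at 9.74% against 3.03% and 3.69%, and mt-Co1 at 29.4% against 42.1% and 41.9%. Without it, mt-Cytb, mt-Nd1, mt-Nd2, mt-Nd4, mt-Nd6 and mt-Tl1 were called lower in Grb10 pA ESCs, so mt-Nd6 joined the genes that fell while mt-Co1 and mt-Te left them.

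**Figure D5:**
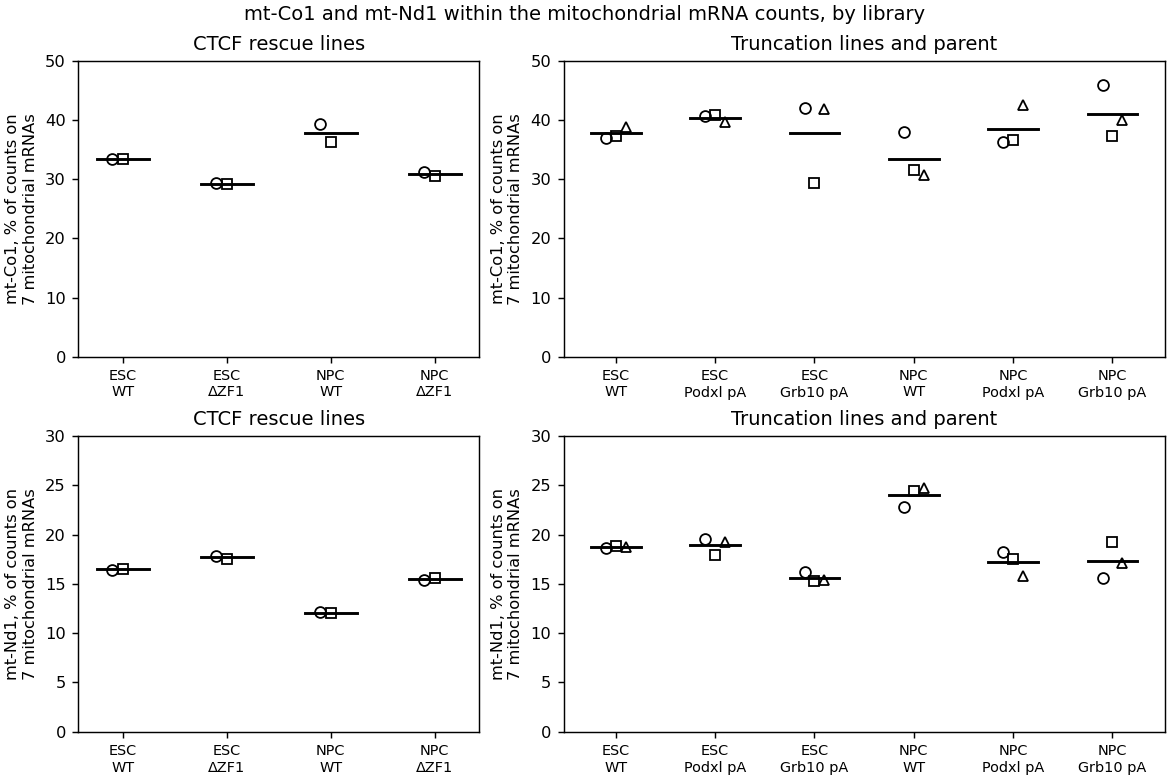
Percent of the counts on the 7 mitochondrial messenger RNAs taken by mt-Co1 (upper panels) and mt-Nd1 (lower panels), per library and group, with replicate symbols and group means. mt-Co1 is lower with ΔZF1 in both cell types. mt-Nd1 is 22.8% to 24.7% in E14 WT NPCs against 15.6% to 19.2% in Grb10 pA NPCs and 15.8% to 18.3% in Podxl pA NPCs.

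Among nuclear genes with roles in mitochondria, few calls would be found in lists this short at the background of Grb10 pA ESCs, where 4.51% of all genes rose and 4.58% fell. There, 0 of 10 transcription genes, which include the polymerase and its factors, 0 of 31 RNA processing genes and 0 of 15 mitochondrial DNA replication genes were called by edgeR in either direction, with 2, 8 and 4 at an unadjusted p under 0.05. Their median log2 fold changes were -0.01, -0.01 and 0.06, against 0.01 over all genes. Of 11 biogenesis regulators only Myc, a growth-promoting transcription factor, fell, from 9.76 ± 1.73 to 3.92 ± 1.85 CPM (SD, n = 3; log2 fold change -1.42, SE 0.31, adjusted p = 0.00227, edgeR). Of 20 protein quality and stress response genes 2 rose and 2 fell: Ddit3, a stress-induced transcription factor, rose by 1.04 and Lonp1, the matrix protease, by 0.64, while Atf5 fell by 0.79 and the secreted stress cytokine Gdf15 by 0.60 on the log2 scale. Among 27 translation factors Cars2, the mitochondrial cysteine transfer RNA synthetase, fell by 0.73.

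In Grb10 pA NPCs, 0 of 10 transcription genes were called by edgeR, with 4 at an unadjusted p under 0.05, and of 31 processing genes 3 rose and 1 fell. Since 7.9% of all genes rose and 8.64% fell there, these counts are near or below the background and no result about the lists. Grsf1, an RNA-binding protein of mitochondrial RNA granules, rose from 109 ± 6.62 to 155 ± 13.3 CPM (SD, n = 3; log2 fold change 0.52, SE 0.08, adjusted p = 3.44e-05, edgeR), and Trit1 and Mrm1, which modify transfer and ribosomal RNA, rose by 0.75 and 0.55. Fastkd3 fell by 0.58. Of 15 replication genes 1 rose and 3 fell, among them Twnk, the replicative helicase, by 0.64. As in ESCs, Ddit3 rose, by 1.18, and Atf5 and Gdf15 fell, by 1.15 and 1.05, and Cars2 fell by 0.88. For the difference of the Grb10 pA effects between NPCs and ESCs, 0 of the 10 transcription genes, with 1 at an unadjusted p under 0.05 in edgeR, and 1 of the 31 processing genes were called.

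With ΔZF1, 1 transcription gene was called lower in each cell type, where 2.33% of all genes fell in ESCs and 10.5% in NPCs. In ESC-ΔZF1, 1 of 11 fell, Tfb2m, from 11.8 ± 0.0261 to 5.96 ± 0.602 CPM (SD, n = 2; log2 fold change -0.98, SE 0.19, adjusted p = 0.0270, edgeR), and in NPC-ΔZF1 it was Mrpl12, a ribosomal protein that also binds the polymerase, by 0.61. Of 31 processing genes 2 fell in ESCs, and 1 rose and 6 fell in NPCs, where 7.19% of all genes rose. The rRNA methyltransferase Mrm1 was down by 0.89 and 0.79. Of 19 stress response genes 2 rose in ESC-ΔZF1 and 6 in NPC-ΔZF1, against 1.29% and 7.19% of all genes, and the other 17 and 13 did not pass. Those that rose included Atf5 in both, by 1.12 and 0.98, Gdf15 in ESCs, by 1.17, and Chac1 and the serine synthesis enzyme Psat1 in NPCs, by 2.01 and 0.87 on the log2 scale.

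On differentiation the lists are read against the many genes that changed. From ESC-WT to NPC-WT, 2 of 31 processing genes rose and 12 fell, against 22.0% and 19.9% of all genes, with Grsf1 going from 204 ± 3.02 to 105 ± 17.8 CPM (SD, n = 2), and 10 of 19 stress response genes fell with 0 rising. From E14 WT ESCs to NPCs, 1 of 31 processing genes rose and 4 fell, which is no more than the 16.5% and 16.3% of all genes. Grsf1 fell by 1.00, while Tfam, which packages and transcribes the mitochondrial genome, rose by 0.51 and Polg, its DNA polymerase, by 0.53. Of 10 transcription genes 1 rose and 1 fell against these shares, and of 15 replication genes 3 rose and 0 fell. Myc rose by 2.76 in E14 WT cells and by 3.91 in Grb10 pA cells on the log2 scale. Of the 11 biogenesis regulators, Myc among them, 1 rose and 3 fell in E14 WT cells. In Grb10 pA cells 2 of the 11 rose and 3 fell, where 17.2% of all genes rose and 17.4% fell. Polg rose by 0.70 in Grb10 pA cells as well, where 0 of 10 transcription genes were called by edgeR, with 2 at an unadjusted p under 0.05, and all 7 measured messenger RNAs of the mitochondrial genome rose.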

How the data were processed

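Total RNA was depleted of ribosomal RNA and sequenced from 8 libraries of CTCF rescue lines and 18 libraries of E14 WT and truncation lines. The authors deposited unnormalized read counts per gene, with 1 table for each experiment. Per the labels and the study's methods these came from STAR alignment to mm10 and unstranded featureCounts assignment; tool versions are not given in the sources used here. Columns of 3 libraries without a sample here were not used.

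Counts were filtered with filterByExpr, scaled by TMM and tested with edgeR 4.0.16 (quasi-likelihood, R 4.3.3), with 1 mean per group and all libraries of a table in 1 model, and Benjamini-Hochberg adjustment over all genes. Calls needed an adjusted p of at most 0.05 and an absolute log2 fold change of at least 0.5. CPM values are TMM-scaled. Proportions were compared by two-sided exact permutation tests. DESeq2 1.42.0, RLE scaling, other filters and cutoffs, nuclear scaling, a replicate block and leaving out libraries were alternatives. In simulated counts with 200 genes changed 2-fold, 61.0% were recovered for ΔZF1 in NPCs (16641 genes) and 79.0% for Grb10 pA in ESCs (13268 genes). The changed genes were drawn at random from all genes tested. These rates therefore do not give the power for the mitochondrial genes, whose spread between replicates was wider. Gene positions and copies came from GENCODE M21 transcripts of GRCm38, the assembly of mm10. Named were all messenger and ribosomal RNA genes of the set, the 5 highest transfer RNAs per table and any called, up to 4 called genes per nuclear list with the largest changes, and Podxl, Grb10 and Ctcf. The genes and lists were chosen with earlier results of these data known.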

Additional observations from a re-analysis of the deposited data

Results flagged for a closer look

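The Grb10 pA effect, meaning the difference between Grb10 pA and E14 WT cells, differed between NPCs and ESCs for 9 mitochondrial genes. This was by the edgeR test of the difference itself. The effect in NPCs minus that in ESCs was 1.75 on the log2 scale for mt-Co1, 1.37 for mt-Cytb, 1.31 for mt-Nd1, 1.75 for mt-Nd2, 1.71 for mt-Nd4, 1.36 for mt-Nd5 and 1.38 for mt-Nd6. For the transfer RNAs it was 3.50 for mt-Tl1 and 2.25 for mt-Tp, both on few counts. E14 WT NPCs, in which the third library was high and the second low, enter each of these values. They are also the controls of the comparison that the set was chosen on, so these values are not independent of that choice.

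The proportion of mt-Nd1 among the 7 messenger RNAs went opposite ways on differentiation in E14 WT cells and in the rescue lines. It was higher in NPCs by 5.25 percentage points in E14 WT cells, and changed by -4.38 points in WT rescue cells and by -2.21 points in ΔZF1 rescue cells, with no overlap between libraries in any of the 3. The truncated lines did not share the E14 WT change. It was 1.72 points in Grb10 pA cells and, described without a test, -1.74 points in Podxl pA cells, with overlap in both. Over all tested groups 36 of 63 such proportions did not overlap (57.1%), 7 of 7 in each rescue differentiation and 2 of 7 in that of E14 WT cells. mt-Nd4 did the reverse, at -0.857 points in E14 WT cells, 0.832 points in WT rescue cells and 0.399 points in ΔZF1 rescue cells. Its change was -0.539 points in Grb10 pA cells, with overlap, and 1.15 points in Podxl pA cells, without overlap. The difference between E14 WT and rescue cells was not tested, since the lines, the treatment and the count table differ together and cannot be told apart.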

How the results depend on the processing

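No value turned its direction past the threshold under any alternative, and of the values that answer a comparison 416 kept their side and size and 51 moved. Single-gene calls were less stable: over the alternatives 447 held and 118 were weaker. Of the 35 calls of the main fit, DESeq2 lost 17 and an adjusted p cutoff of 0.01 lost 18. An adjusted p of at most 0.01 left 0 genes for ΔZF1 in NPCs and for WT rescue differentiation, 4 lower in Grb10 pA ESCs, 1 higher in Grb10 pA NPCs, 1 lower on E14 WT differentiation and 3 for the Grb10 pA difference. DESeq2 called 2 genes for ΔZF1 in NPCs, 0 for WT rescue differentiation, 0 in Grb10 pA NPCs, 1 lower on E14 WT differentiation and 3 for the Grb10 pA difference. With no filter on low counts, 8 genes rose with ΔZF1 in NPCs, 4 fell on WT rescue and 3 rose on ΔZF1 rescue differentiation. For the ΔZF1 difference 8 rose. In the truncation lines, 4 then fell in Podxl pA ESCs and 11 in Grb10 pA ESCs. On E14 WT differentiation 4 fell, mt-Co1, mt-Nd4, mt-Nd6 and mt-Tl1, and the 2 ribosomal RNAs rose. At least 10 counts in every library left 0 genes for both WT differentiations, and fitting only the groups compared gave 0 for ΔZF1 in NPCs and 2 for ΔZF1 differentiation. The cause was not tested.

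Leaving out single libraries gave 0 to 12 genes for ΔZF1 in NPCs, for WT rescue differentiation and for the ΔZF1 difference, 1 to 8 lower in Grb10 pA ESCs, 0 to 7 higher in Grb10 pA NPCs, 0 to 2 higher and 1 to 8 lower on E14 WT differentiation, and 3 to 9 for the Grb10 pA difference. The log2 ratio of shares then ran from -0.10 to 1.70 for ΔZF1 in NPCs, -1.61 to 0.18 and -0.13 to 0.59 for WT and ΔZF1 rescue differentiation, -0.092 to 0.95 for Grb10 pA NPCs and -0.46 to 0.58 for E14 WT differentiation. Same-numbered replicates did not deviate together (r from -0.14 to 0.13 and from -0.21 to 0.15), and a replicate block lost 1 call, mt-Nd6 at -0.62 on E14 WT differentiation. Depth limits the transfer RNAs most.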
